A study of Homo sapiens with 3 samples.

Results

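SW48 is an established human colorectal cancer line with unstable microsatellites, used as a model of tumours that cannot repair mismatched bases. The baseline described here is 1 library, from SW48 cells stably carrying the empty plasmid pcDNA3.1, the control of the series. It is 1 of 3 libraries in the series. Its values were used alone to rank 18282 genes. The other libraries are labelled as SW48 cells with DDX3 overexpression, and as such cells with YAP1 knockdown besides. The gene values given below, scaled to each library's median, did not show these changes and cannot decide on them. All 3 lines passed 4 weeks of selection with G418, so the drug and the selection are part of the baseline as well. Total RNA was labelled with Cy5 and read on 1-colour arrays, and each group had 1 sample, which per the labels joined 2 technical replicates. No spread between replicates can therefore be given, and groups were not tested against each other.

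A gene took the mean log2 deposited intensity over its probes with exactly 1 gene symbol, given below as the intensity itself. The floor was the median of all 31741 probes of the vector library, an intensity of 469. A gene was called dim between the floor and the 75th percentile of all probes (2856), intermediate between that and the 90th percentile (11799), and bright from there up. By this scale 8191 of the 18282 genes lay below the floor (44.8%), 5024 were dim, 3131 intermediate and 1936 bright (10.6%). At or above the floor lay 55.2% of all genes, the background for each count below. Brightness depends on a probe's own sequence as well as on its RNA, so ranks order signals and not RNA levels, and an intensity of 1 gene is not a multiple of that of another. In a whole culture, fewer cells expressing a gene and less RNA per cell cannot be told apart.

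**Figure D1:**
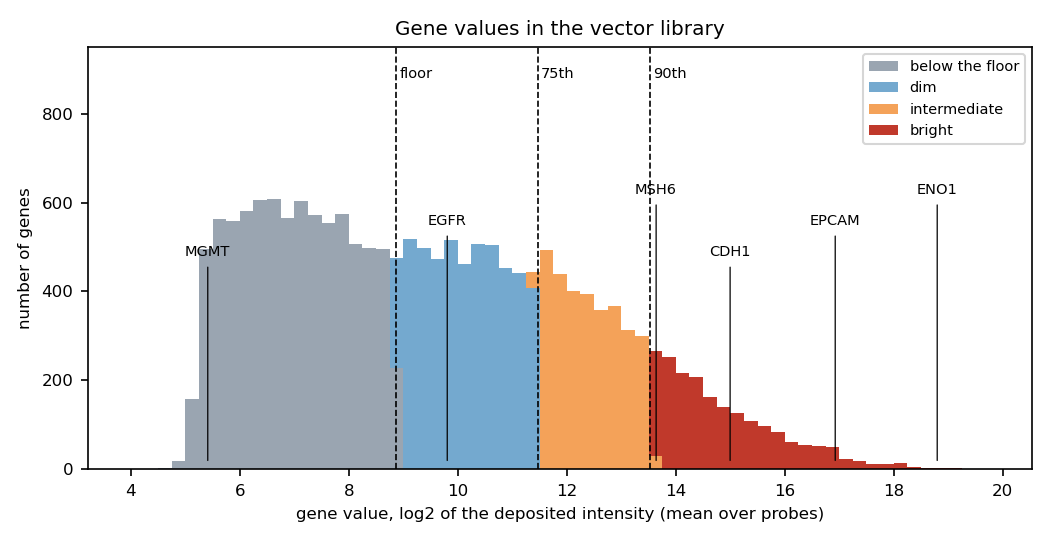
Number of genes by gene value (log2 of the deposited intensity, mean over the probes of a gene) in the vector library, coloured by class, with dashed lines at the floor and at the 75th and 90th percentiles of all probes. The values form a broad plateau below and just above the floor and a tail of 1936 bright genes, in which CDH1, EPCAM and ENO1 lie, while MGMT is near the lower end.

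Colorectal epithelium is recognised by a set of adhesion molecules, keratins and transcription factors. CDX2 is the homeobox factor that gives the hindgut its identity. EPCAM and CDH1 hold epithelial cells together, and EGFR is the receptor tyrosine kinase whose signal drives much of crypt growth. EPCAM had an intensity of 124517 and ranked 101 from the brightest of 18282 genes. Over its own floor it stood at log2 values of 8.05, 8.05 and 7.73 in the vector library and in those labelled DDX3 and DDX3+YAPsi. CDH1, the E-cadherin gene, had 32702 and log2 values over the floor of 6.12, 5.85 and 5.82 in the same order. CDX2 had 12758, just inside the bright class, with 4.76, 4.73 and 4.75. EGFR was dim at 895, with 0.93, 1.19 and 0.78. All 4 markers thus lay above the floor in each of the 3 libraries, EPCAM and CDH1 far above it and EGFR close to it.

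The EGFR value hides a disagreement between its 3 probes. They had intensities of 4146, 532 and 325 in the vector library, so that 1 was intermediate, 1 dim and 1 below the floor. The brightest stood at 3.14, 3.63 and 3.44 (log2 over the floor) in the 3 libraries, and the dimmest at -0.53, -0.50 and -1.09, and the order of the 3 probes was the same in each. By its brightest probe EGFR ranked at the 72.6th percentile of genes, and by its dimmest at the 44.7th. The other 3 markers rested on 1 probe each.

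The labels call for more DDX3 in 2 libraries and less YAP1 in 1. Over each library's own floor, the gene values, means over probes, showed neither against the vector library. With 1 sample per group they cannot decide whether the labels hold. DDX3X, the gene of the helicase, stood at 4.71, 4.22 and 3.93, and YAP1, the coactivator at the end of the Hippo pathway, at 5.60, 5.73 and 5.66. The deposited intensities of YAP1, from 1 probe, were 22713, 21983 and 15434, lowest in the library labelled DDX3+YAPsi. That library also had the lowest floor, at 305 beside 469 in the vector library. The probes of DDX3X did not move together. The brighter stood at 7.03, 7.25 and 6.87, highest in the library labelled DDX3, and the dimmer at 2.38, 1.20 and 0.98, highest in the vector library. The libraries are therefore named by their labels. For the baseline this leaves both genes bright, at 12278 and 22713, although the probes of DDX3X lay at 61505 and 2451. SIX2, a homeobox factor, was intermediate at 11610.

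**Figure D2:**
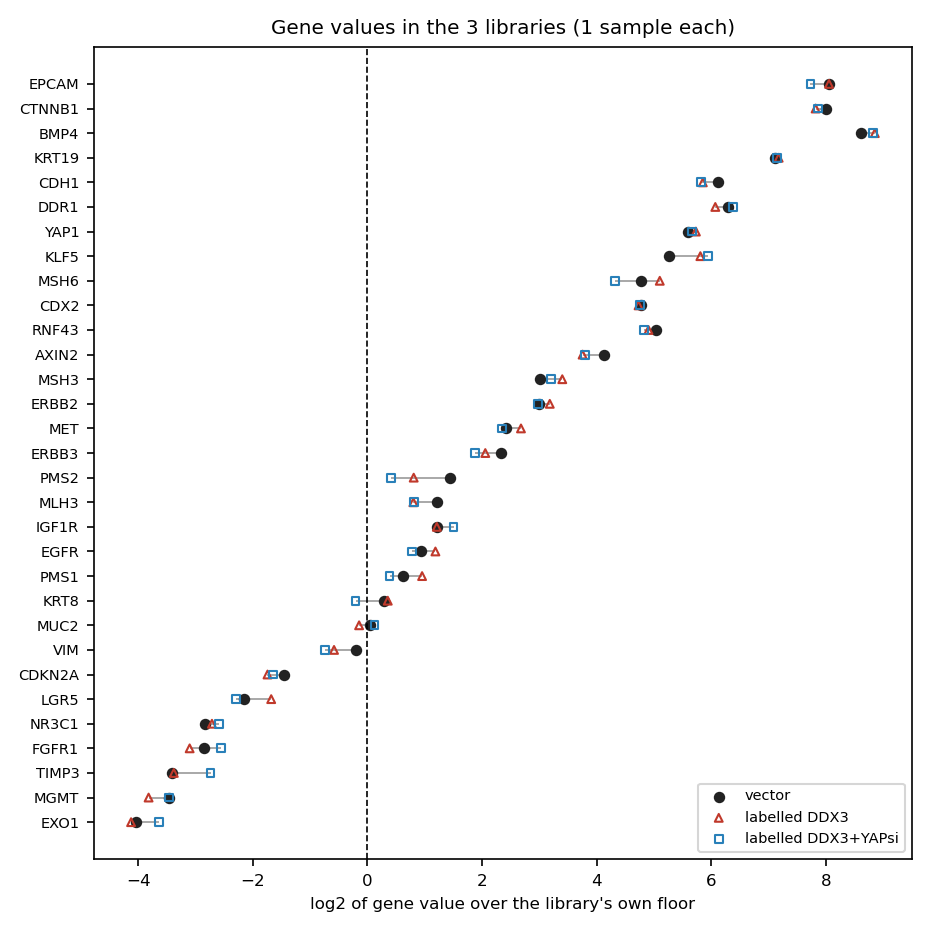
Gene values (log2 over each library's own floor) of 31 genes named in the text, with filled circles for the vector library and open triangles and squares for the libraries labelled DDX3 and DDX3+YAPsi. Markers such as EPCAM and CDX2 lie in nearly the same place in each library, and of the genes shown KRT8 and MUC2 change side of the floor (dashed line).

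Positions relative to the floor were largely the same in all 3 libraries. Of the 10091 genes at or above the floor in the vector library, 9728 (96.4%) were so in both others, and of the 8191 genes below it, 7842 (95.7%) were below in both others. Bright genes kept their class in 89.6% of cases, and none of the 1936 fell below the floor elsewhere. These libraries share the line, the selection and the array, so this overlap is a description and not a test of the baseline.

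The brightest genes of the vector library included those of protein synthesis, energy metabolism and the cytoskeleton. Of the 30 brightest named genes, 9 encoded cytosolic ribosomal proteins, led by RPL8 at 553901 and RPL35A at 425902. The first rank was held by S100A6, a calcium-binding protein, at 586824. MIF, a cytokine made by many epithelial cells, had 514890, and ENO1, an enzyme of glycolysis, 455733. ANXA1, a phospholipid-binding protein, had 334661, and the chaperone HSP90AB1 had 370492. GSTP1, a conjugating enzyme of detoxification, had 282143, with both probes bright. BAMBI, a decoy receptor that dampens TGF-beta signals and a known target of beta-catenin, had 266467. DNALI1, a dynein light chain of cilia, ranked 8 with 362695 from 1 probe. All 30 genes were also among the 100 brightest genes in both other libraries, and 74 of the 100 brightest were shared by all 3.

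Genes known for restricted or for universal expression show how far a class can be trusted. Olfactory receptors, which sense odours in the nose, lay at or above the floor for 83 of 289 genes (28.7%). Of them 8 were bright, with OR4D6 highest at 82258, followed by OR2G2 at 46637 and OR2T1 at 29999. OR4D6 had log2 values over the floor of 7.45, 7.68 and 7.51 in the 3 libraries, close to each other. The 95th percentile of these receptors was an intensity of 4961, which 20% of all genes reached. At the other end, 10 of 74 ribosomal protein genes lay below the floor, each on 1 probe. RPL24 had 50, RPL3 57.9 and RPS7 75.7, although each is part of every ribosome, while RPL10L, RPL39L and RPL22L1, also below, are paralogues of such genes. A value above the floor thus does not by itself show a transcript, and a value below it on 1 probe does not show its absence.

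Genes with several probes gave the size of this uncertainty. For the 5438 such genes the brightest probe was a median of 3.51 times the dimmest, and 28.2 times at the 90th percentile of genes. The median SD within a gene was 1.23 on the log2 scale, against an SD of 2.87 over the values of all genes. In 1722 of these genes (31.7%) probes lay on both sides of the floor. Most genes, 12844 of 18282, rested on 1 probe and have no such check. MDH1 and PRDX1, both abundant enzymes, are extreme cases, with probes at 40390.2 and 35 for the first and at 234963 and 53.1 for the second.

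**Figure D3:**
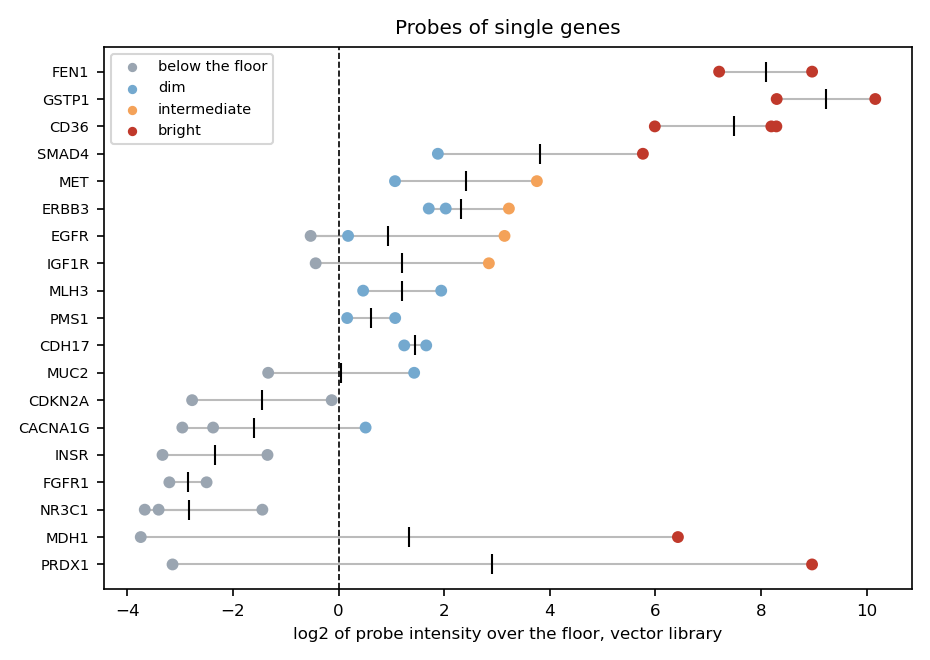
Intensity of each probe (log2 over the floor, vector library) for 19 genes with several probes, with a short vertical line at the mean that serves as gene value. The probes of FEN1, GSTP1, CD36, NR3C1 and FGFR1 lie on 1 side of the floor, while those of EGFR, MDH1 and PRDX1 lie on both.

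Epithelial surface and junction genes were well represented. Of 33 genes, 31 were at or above the floor (93.9%, beside 55.2% of all genes) and 7 were bright, with a median at the 78.6th percentile of all genes, where all genes have 50. Besides EPCAM and CDH1 the bright members were SPINT2, an inhibitor of surface proteases (28056), and the desmosomal genes DSG2 (24572), PKP3 (23286), JUP (20363) and DSC2 (15267). Of other desmosomal genes DSP was intermediate at 8528 and PKP2 dim at 2368. Among tight junction genes CLDN7 (10031), CLDN3 (6789.7) and TJP1 (4889) were intermediate and OCLN (1503) was dim. The splicing regulators ESRP1 and ESRP2, which set epithelial isoforms, were intermediate at 4438 and 5511. The members below the floor were MARVELD2 at 194 and GRHL2, an activator of epithelial genes, at 40.8, each with 1 probe and each below in all 3 libraries.

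Among keratins, the filament proteins that distinguish simple from stratified epithelium, KRT19 of simple epithelium was bright at 64695. KRT8, a filament partner in simple epithelium, had a signal just over the floor, at 576, and log2 values of 0.29, 0.35 and -0.21, so it crossed the floor in 1 library. KRT20, a marker of differentiated colon cells, was dim at 534, and KRT7, which colon cells usually lack, lay below the floor at 127. Keratins of stratified epithelium were mixed. KRT10 was bright at 14472, KRT14 intermediate at 5247, and KRT13 (2575), KRT16 (2136) and KRT15 (648) dim. Below the floor were KRT1, KRT4, KRT5, KRT6A and KRT17, from 365 for KRT5 to 90.5 for KRT17. In all 9 of 15 keratins (60%) were at or above the floor, each on 1 probe.

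Transcription factors of the intestine lay on both sides of the floor. Of 24 factors, 14 were at or above the floor (58.3%). KLF5, a factor of proliferating crypt cells, was brightest at 17898, with 5.25, 5.81 and 5.94 over the floor. EHF and SOX9, a factor of crypt progenitors, were intermediate at 9989 and 8451, followed by FOXA1 (4711), KLF4 (3838) and VDR, the vitamin D receptor (3584). HOXB13, a factor of the hindmost gut, lay just under the intermediate class at 2819, with probes at 5710.2 and 1391. CDX1, the relative of CDX2, was dim at 593. Below the floor were GATA6 (410.3), GATA4 (105), FOXA2 (219), FOXA3 (108), the secretory lineage factors ATOH1 (133) and SPDEF (189.9), and ISX (41.6). None of the 24 changed side of the floor between libraries.

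Factors of other lineages lay at or above the floor in 6 of 24 cases (25%), beside 28.7% of the olfactory receptors. SOX2, SPI1, NEUROD1 and PTF1A, which direct neural, myeloid, endocrine and pancreatic fates, had 95.3, 73.1, 47.4 and 44.2. The highest were NKX2-5, a heart factor, intermediate at 9075 on 1 probe, and SOX10, a neural crest factor, dim at 2835, followed by GATA2, GATA1, MYOG and TFAP2A, all dim. NKX2-5 stood at 4.27, 4.23 and 4.68 over the floor in the 3 libraries.

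Genes of differentiated intestinal cells gave mostly low signals. Of 36 genes of enterocytes and colonocytes, the absorptive cells, 21 lay below the floor (58.3%, beside 44.8% of all genes). LGALS3, a galectin found in many epithelia, was bright at 133821, as was the tetraspanin TSPAN8 at 17662. ALPI, the intestinal alkaline phosphatase, was intermediate at 8779.7. CDH17, the liver-intestine cadherin, was dim at 1284 with 2 close probes, and CEACAM5, the carcinoembryonic antigen, sat at the floor with 492 and log2 values of 0.07, -0.24 and -0.67. VIL1, the villin of the brush border, lay below the floor at 238. The fatty acid binding proteins FABP1 and FABP2 had 206 and 42.3, and the chloride exchanger SLC26A3 had 108. CEACAM7 (33.5) and APOA4 (30.7) were near the lowest signals on the array.

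Secretory cell genes were lower still, with 6 of 29 (20.7%) at or above the floor, each of them dim. The highest were CLCA1 (2118), PLA2G2A (1968) and TFF1 (1499), above the floor in each of the 3 libraries. The goblet cell mucin MUC2 had 486, with probes at 1266 and 186, and TFF3, a goblet cell peptide, had 335. AGR2, a chaperone of mucins, had 35, while its neighbour AGR3 had 1136. Enteroendocrine markers CHGA (247) and PYY (49.9) and the Paneth cell peptide DEFA6 (30) lay below the floor. Intestinal stem cell genes were higher, with 14 of 20 (70%) at or above the floor. ALDH1A1, an aldehyde dehydrogenase used as a stem cell marker, was bright at 27532, and PROM1, which encodes CD133, was at 11517. The crypt base receptor LGR5, by contrast, had 106 and stood at -2.15, -1.68 and -2.30, and OLFM4 had 39.8.

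Markers of other cell types were mostly below the floor. Of 25 mesenchymal genes 17 were below (68%), among them ZEB1 (79.6), SNAI2 (46.9), FN1 (51.6), COL3A1 (46.9), DCN (72.7) and FAP (121). VIM, the intermediate filament of mesenchyme, stood at -0.20, -0.58 and -0.74 in the 3 libraries. The bright members were S100A4, a calcium-binding protein of motile cells, at 202600, and SPARC, a matrix protein, at 12626, each on 1 probe. ACTA2, the smooth muscle actin (6878), TWIST2 (6658) and the collagen gene COL1A1 (2932) were intermediate, and SNAI1, a repressor of CDH1, was dim at 2852, as were COL5A1 (1306) and TAGLN (485). Immune markers were at or above the floor in 4 of 17 cases, each dim, led by CD14 (1475) and CD8A (1239). PTPRC, the pan-leukocyte antigen, had 124, and CD3D had 446 with probes at 7218 and 27.6. Endothelial markers were at or above the floor in 2 of 12 cases, EGFL7 (3403, intermediate) and ESAM (1621, dim), with PECAM1 at 243. Genes restricted to liver were so in 4 of 16 cases and those of muscle in 2 of 14, with HPX (1811) and TNNT3 (737) highest. Genes of neurons and retina were so in 1 of 13, which was SYT1, intermediate at 2988. Of the 12 such genes below the floor 3 had a probe above it, MBP at 6123, PDE6A at 830 and GRIN1 at 483. These shares, 7.69% to 32% by the mean over probes, lay on either side of the 28.7% of the olfactory receptors.

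**Figure D4:**
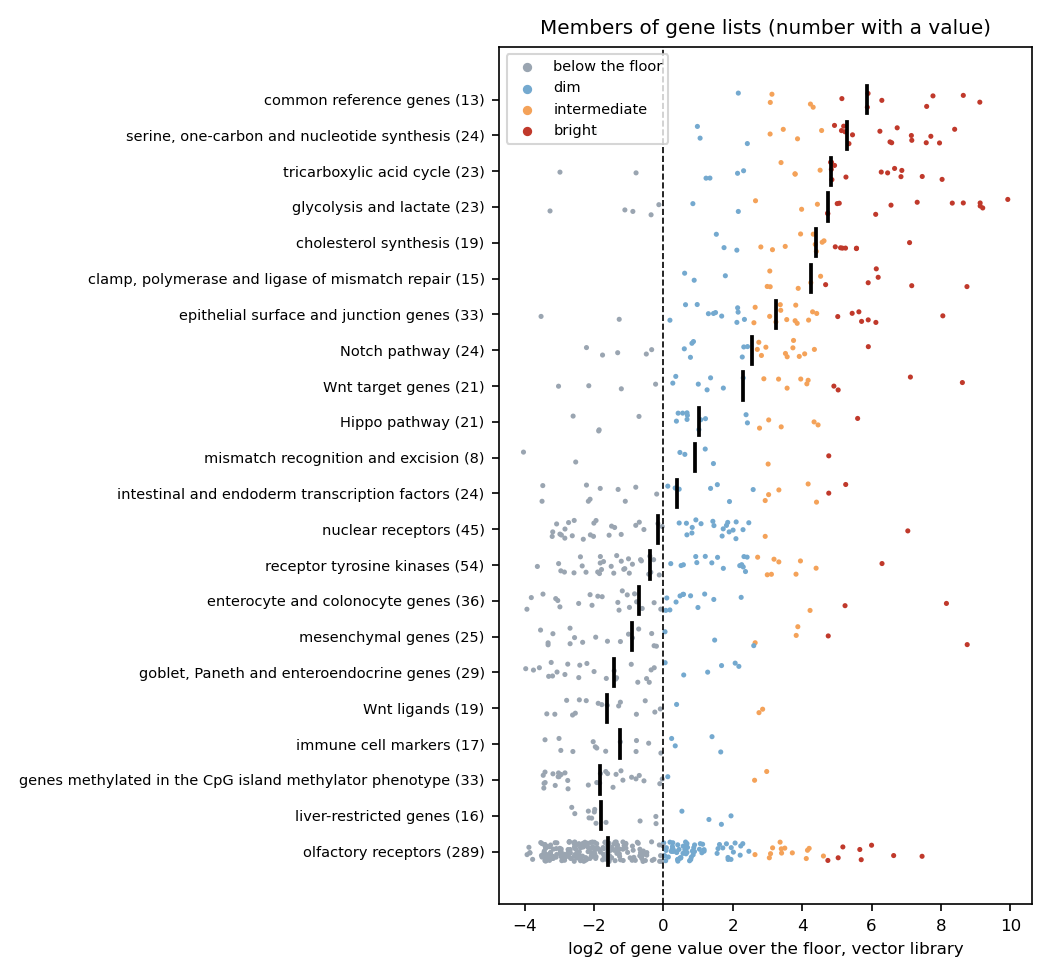
Gene values (log2 over the floor, vector library) of the members of 22 gene lists, 1 point per gene coloured by class, with a black line at the median of each list. Lists of metabolism and of the replication machinery lie to the right, receptor lists straddle the floor (dashed line), and secretory genes, Wnt ligands and genes methylated in the methylator phenotype lie to its left, near the olfactory receptors.

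Mismatch repair corrects errors of replication. MSH6 and MSH3 are alternative partners in the complexes that recognise a mismatch, PMS2 is the endonuclease subunit of the complex that follows, and EXO1 removes the faulty strand. Of 10 genes of recognition and excision 8 had a value, and the other 2 were not analysed here. MSH6 was just inside the bright class at 12759.7 on 1 probe, with 4.77, 5.10 and 4.33 over the floor in the 3 libraries. In the library labelled DDX3+YAPsi MSH6 was intermediate. MSH3 was intermediate at 3801, with 3.02, 3.40 and 3.20. PMS2 was dim at 1275, with 1.44, 0.81 and 0.41. MLH3 and PMS1, partners of minor complexes of the same kind, were dim at 1082 and 720.1, and no probe of either lay below the floor in the vector library. MSH5 was dim at 653, and MSH4, its partner in meiosis, lay below the floor at 81.4. In all 6 of 8 were at or above the floor in each library. EXO1 had 28.7 on 1 probe, near the lowest intensity on the array (22.1), and stood at -4.03, -4.13 and -3.64.

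The proteins that complete repair and also serve replication were brighter. Listed were the clamp, its loader, the single-strand binding protein, polymerase delta, the ligase and also HMGB1. All 15 genes lay at or above the floor, with a median at the 86.7th percentile. PCNA, the sliding clamp, had 201634, RFC2 and RFC4 of the clamp loader had 66922 and 32963, and POLD2 had 28042. HMGB1, a DNA-binding protein, was lowest at 717, with 0.61, 0.69 and -0.02, just under the floor in 1 library, and RPA3 had 868. Among 31 genes of other repair pathways 27 (87.1%) were at or above the floor. The flap endonuclease FEN1 (127714, both probes bright), XRCC6 of end joining (100102) and the base excision enzyme APEX1 (90215) led them. WRN, a helicase on which unstable-microsatellite cells are known to depend, was intermediate at 8611. Below the floor were PALB2 (393), LIG4 (387), BRCA2 (71) and MGMT.

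MGMT removes alkyl groups from guanine, and loss of its expression is common in colorectal tumours with promoter methylation. Its intensity was 42.5, at percentile 2.31 of genes, and it stood at -3.46, -3.82 and -3.46 in the 3 libraries, near the bottom of the scale in each. MGMT belongs to a list of genes known to become methylated in tumours with the CpG island methylator phenotype, to which many tumours with unstable microsatellites belong. Of 33 such genes with a value, 30 (90.9%) lay below the floor, beside 44.8% of all genes, and their median was at percentile 23.3. Many of them are silent in normal colon too, so the count by itself is a description. The Wnt antagonists SFRP2 (60.9), SFRP4 (57.3), SFRP5 (58.4) and DKK1 (57.8) were near the lowest signals, and SFRP1 (249) and WIF1 (209) were below the floor. TIMP3, an inhibitor of matrix proteases, had 44.2, the transporter SLC5A8 had 44.1 and the phosphatase and coactivator EYA4 had 43.3. CDKN2A, which encodes the cell cycle inhibitor p16, had 172, with probes at 429 and 68.6. The members at or above the floor were NDRG4 (3694), RASSF1 (2899.5) and GATA5 (512). SOCS1 and RASSF2 lay above the floor in both other libraries, at log2 values of -0.03, 0.25 and 0.06 and -0.10, 0.05 and 0.07. With the brightest probe of each gene 6 of 33 were at or above the floor.

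Methylation was not measured in these libraries, but the target of such methylation, the CG dinucleotide, can be read in the promoters. The windows below run from 250 bases before to 50 after the annotated start (RefSeq, GRCh38.p14, strand of the gene), with each CG in capitals. They are shown to set a pair of bright genes with CG-dense or moderate windows (MSH6 and CDX2) beside list members near the bottom of the scale (MGMT, TIMP3 and EYA4) and a CG-poor gene of enterocytes (FABP2). They are reference sequence and not that of SW48.
MSH6, chr2:47782895-47783194, plus strand: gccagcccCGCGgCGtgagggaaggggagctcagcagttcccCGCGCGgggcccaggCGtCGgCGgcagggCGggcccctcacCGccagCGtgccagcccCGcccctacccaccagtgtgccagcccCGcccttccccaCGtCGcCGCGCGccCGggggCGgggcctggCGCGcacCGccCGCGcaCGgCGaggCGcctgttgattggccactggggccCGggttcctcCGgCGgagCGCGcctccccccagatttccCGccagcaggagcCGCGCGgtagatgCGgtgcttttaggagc
CDX2, chr13:27969266-27969565, minus strand: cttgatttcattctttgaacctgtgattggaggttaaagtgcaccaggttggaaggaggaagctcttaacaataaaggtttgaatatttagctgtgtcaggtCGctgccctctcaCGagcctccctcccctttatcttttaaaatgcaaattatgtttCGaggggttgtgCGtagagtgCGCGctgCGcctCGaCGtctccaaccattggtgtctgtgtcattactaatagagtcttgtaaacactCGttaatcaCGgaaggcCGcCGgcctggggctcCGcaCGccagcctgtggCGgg
MGMT, chr10:129466991-129467290, plus strand: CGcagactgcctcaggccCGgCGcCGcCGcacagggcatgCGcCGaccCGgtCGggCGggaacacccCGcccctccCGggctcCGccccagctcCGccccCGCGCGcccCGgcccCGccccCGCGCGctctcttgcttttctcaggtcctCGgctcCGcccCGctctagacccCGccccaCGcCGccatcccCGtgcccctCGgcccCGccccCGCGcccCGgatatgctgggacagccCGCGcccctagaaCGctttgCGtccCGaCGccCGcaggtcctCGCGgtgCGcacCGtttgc
TIMP3, chr22:32801455-32801754, plus strand: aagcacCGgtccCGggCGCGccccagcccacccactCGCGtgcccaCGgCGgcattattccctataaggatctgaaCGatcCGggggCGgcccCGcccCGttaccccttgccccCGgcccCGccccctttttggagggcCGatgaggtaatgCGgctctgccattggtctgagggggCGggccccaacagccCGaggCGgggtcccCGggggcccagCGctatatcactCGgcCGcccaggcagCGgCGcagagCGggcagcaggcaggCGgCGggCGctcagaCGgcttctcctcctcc
EYA4, chr6:133241107-133241406, plus strand: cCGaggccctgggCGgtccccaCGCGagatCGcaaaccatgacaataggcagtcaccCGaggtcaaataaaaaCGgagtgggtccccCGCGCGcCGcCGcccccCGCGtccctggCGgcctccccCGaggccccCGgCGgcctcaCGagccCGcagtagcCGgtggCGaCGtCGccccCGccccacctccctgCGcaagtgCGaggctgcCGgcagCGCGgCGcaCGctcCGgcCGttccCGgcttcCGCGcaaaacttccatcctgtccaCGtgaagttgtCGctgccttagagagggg
FABP2, chr4:119322089-119322388, minus strand: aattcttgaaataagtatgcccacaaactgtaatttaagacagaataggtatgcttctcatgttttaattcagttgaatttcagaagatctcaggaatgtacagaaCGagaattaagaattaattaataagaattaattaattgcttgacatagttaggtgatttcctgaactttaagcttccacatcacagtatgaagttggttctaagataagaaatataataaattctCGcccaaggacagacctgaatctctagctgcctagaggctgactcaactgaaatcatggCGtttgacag

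The MSH6 window held 39 CG and that of MGMT 45, with a ratio of observed to expected CG of 0.858 and 1.06. TIMP3 had 31 and EYA4 39 CG, CDX2 had 16, and FABP2 had 3 with a ratio of 0.347. Bright MSH6 and low MGMT thus have windows of similar CG content, and the windows of MGMT and FABP2, both near the bottom of the scale, are far apart in it.

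Over all genes the classes differed in promoter composition. A window was called CpG-rich when its ratio of observed to expected CG was at least 0.6 and its GC content at least 55%. Windows were found for 14287 of 16893 protein-coding genes outside chromosome 8 (84.6%, and at least 82.2% in each class), and 62.6% of them were CpG-rich. The share was 43.6% below the floor (95% Wilson interval 42.4 to 44.9), 70.6% in dim genes, 81.4% in intermediate genes and 82.6% in bright genes (80.7 to 84.3). The intervals cover counting error over genes only, and genes are not independent replicates. The letters TATAAA, searched on both strands and at any place in the window, were found in 8.92% of all windows, in 12.9% of those below the floor and in 5.8% of those of bright genes. Seen from the promoter, 29.5% of genes with a CpG-rich window and 63.6% of the others lay below the floor. Of the methylator list 26 genes had a window and 20 of these were CpG-rich, of which 19 lay below the floor and RASSF1 above it. Wnt ligands were alike, with 13 CpG-rich windows among 16, 12 of them below the floor, so such a count is not particular to the methylator list. Of the enterocyte and colonocyte genes 5 of 27 windows were CpG-rich, and none of these 5 genes lay below the floor.

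**Figure D5:**
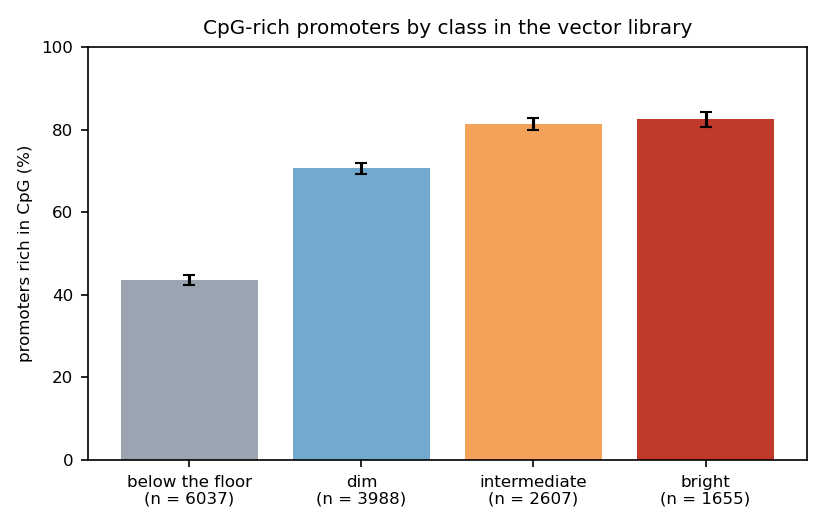
Share of genes with a CpG-rich promoter window (%) by class of the gene in the vector library, with 95% Wilson intervals over genes. The share is 43.6% below the floor, 70.6% in dim genes, and close to the same in intermediate and bright genes at 81.4% and 82.6%.

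Receptor tyrosine kinases, which turn growth factors into phosphorylation signals, lay on both sides of the floor, and which side held more of them depended on how probes were joined. Of 54 kinases 24 (44.4%) were at or above the floor in each of the 3 libraries, and none changed side. With the brightest probe of each gene 32 were at or above it, and with the mean linear intensity 28. Of the 30 below the floor, 8 had a probe above it. DDR1, a collagen receptor of epithelia, was the 1 bright member at 36963, with 6.30, 6.07 and 6.37. Intermediate were RYK, a Wnt co-receptor (9907), the ephrin receptors EPHA2 (7248), EPHB4 (6633) and EPHA1 (4274), the FGF receptors FGFR4 (4706) and FGFR3 (3083), TYRO3 (4057) and ERBB2, the partner of other EGF receptor family members (3737). ERBB2 stood at 2.99, 3.18 and 2.97. MET, the receptor of hepatocyte growth factor, was dim at 2498, with probes at 6341 and 984, and ERBB3 at 2346, with its 3 probes at 4391, 1916 and 1534. IGF1R was dim at 1083, with probes at 3376 and 347, on both sides of the floor. INSR, the insulin receptor, had 92.7 with both probes below the floor. FGFR1 (65) and AXL (37.9) were near the lowest signals, and ERBB4 had 142. The vascular kinase KDR (133), the stromal kinases PDGFRA (253) and PDGFRB (234) and the myeloid kinase CSF1R (60.5) lay below the floor.

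Of the ligands of the EGF receptor family 3 of 10 were at or above the floor and each was dim. These were TGFA (1070), HBEGF (972) and BTC (865). EREG, a ligand studied as a predictor of response to antibodies against EGFR, had 159, and EGF itself had 242. Each of these 5 ligands rested on 1 probe. Of the 7 ligands below the floor, 3 others had a probe above it.

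Nuclear receptors, transcription factors switched by hormones and lipids, lay at or above the floor in 21 of 45 cases (46.7%). The bright member was NR2F6, an orphan receptor, at 61868, and the intermediate member was VDR at 3584. RARG (1887), RXRA (1549.5), PPARA (2007) and NR1H3, an oxysterol receptor (1516), were dim. NR3C1, the glucocorticoid receptor, had 65.5, with its 3 probes at 173, 44.2 and 36.9, all below the floor in each library. The steroid receptors ESR1 (50.9), ESR2 (55.6) and PGR (167) and the bile acid receptor NR1H4 (79) lay below the floor.

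Cytokine and death receptors were at or above the floor in 23 of 46 cases (50%), none of them bright by the mean over probes. Of the 23 below the floor, 5 had a probe above it. The death receptor TNFRSF10B, dim at 1614, had probes at 13196, 2344 and 136, the first of them bright. Both chains of the interferon gamma receptor, IFNGR1 (10876) and IFNGR2 (5599), were intermediate, as were TNFRSF1A (6178), LTBR (6113) and the TRAIL receptor TNFRSF10A (5755). IL22RA1, a receptor of barrier epithelia, had 3241. The shared receptor chain IL6ST had 79.9, TLR2 37.4 and TLR4 119.8, all below the floor. Chemokine receptors were at or above the floor in 3 of 18 cases, with CXCR4 highest at 1679.5. Of the 15 chemokine receptors below the floor 3 had a probe above it. Among receptors of prostaglandins, bile acids and peptides, 15 of 35 were at or above the floor, led by the neurotensin receptor NTSR1 (8926) and the lysophosphatidic acid receptor LPAR2 (7235). NTSR1 stood at 4.25, 4.63 and 5.06 in the 3 libraries.

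In the Wnt pathway receptors relay ligands to beta-catenin, whose level a destruction complex holds down, and SW48 is known to carry an activating mutation of beta-catenin. CTNNB1, its gene, was bright at 119570, with 7.99, 7.82 and 7.86. Of 36 receptor, complex and nuclear genes 28 (77.8%) were at or above the floor. The receptors FZD6 (12158) and FZD7 (11874) and the relay DVL2 (12667) were bright. AXIN1 (9265), GSK3B (6682) and the nuclear partner TCF7L2 (8722) were intermediate, APC was dim at 1080.5, and LRP5 had 99.6 beside 834 for LRP6. Wnt ligands, in contrast, were below the floor in 16 of 19 cases, with WNT11 (3405) and WNT10B (3166) intermediate and WNT10A (611) dim. Of the 16 ligands below the floor 2 had a probe above it.

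Wnt target genes were at or above the floor in 17 of 21 cases (81%). BMP4, a ligand of the BMP pathway, was brightest at 184003, with 8.62, 8.85 and 8.82. CCND1, the G1 cyclin, had 65160.2. The feedback inhibitors RNF43 (15394) and NOTUM (14133) were bright, and AXIN2 (8235), SP5 (7290.3) and ZNRF3 (4682) were intermediate. MYC had 5552. Below the floor were LGR5, DKK1, LEF1 (401) and PROX1 (202), so the list held members at both ends of the scale.

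The RAS and ERK cascade carries receptor signals to the nucleus. Of 24 listed genes 17 had a value and 14 of these were at or above the floor, and the other 7 were not analysed here. The phosphatase PTPN11 (19398), MAP2K1 (17879.8) and the adaptor GRB2 (12178) were bright, while ARAF lay below the floor at 294. Genes that ERK output raises were at or above the floor in 15 of 17 cases. IER3 had 147444, EGR1 49034 and PHLDA1 18989, whereas the feedback genes DUSP6 (1083) and SPRY2 (1342) were dim and SPRY4 (339.7) lay below the floor. The 2 members of this list below the floor, SPRY4 among them, each had a probe above it. In the PI3K and mTOR pathway EIF4EBP1, the translation repressor downstream of mTOR, was bright at 61399, MTOR was intermediate at 8729, and the catalytic subunit PIK3CA lay below the floor at 336 on 1 probe. AKT1 was dim at 2655, with probes at 8106 and 869. AKT2 lay below the floor at 230.2, with probes at 627, 205 and 94.8, the brightest of them above the floor.

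Notch and TGF-beta genes were represented as well. Of 24 Notch pathway genes 19 were at or above the floor, with NOTCH1 (5372), its target HES1 (5560.5) and the ligands JAG2 (3325), DLL4 (3156) and DLL1 (3062) intermediate, and NOTCH3 (334), HEY1 (139) and HEY2 (101) below the floor. Of 32 TGF-beta and BMP genes 26 were at or above it. ID1, a BMP target, was bright at 118626. SMAD4, the shared mediator, had 6639, with probes at 25501 and 1728, and TGFBR2, whose coding repeat is often mutated in tumours with unstable microsatellites, was intermediate at 3014. Hedgehog genes were at or above the floor in 2 of 13 cases, namely SUFU (3192) and CDON (505), with SMO at 239 and GLI1 at 193. Of the 11 Hedgehog genes below the floor 2 had a probe above it. In the Hippo pathway, which restrains YAP1, 17 of 21 genes were at or above the floor, with MOB1A at 10305, TEAD4, the DNA-binding partner of YAP1, at 4935, and the kinase LATS1 below the floor at 77.3.

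Cell cycle and apoptosis genes were at or above the floor in 23 of 26 cases. CDK4 (73487, both probes bright), CDK2 (39397), CCND2 (30373) and CCND3 (23331) were bright. The inhibitor CDKN1A, a p53 target, was bright too at 20133, while BCL2, which blocks apoptosis, lay below the floor at 155 and its relative BCL2L1 was intermediate at 6912. In antigen presentation B2M (90155), HLA-C (51677) and the peptide transporter TAP1 (35233) were bright. CIITA, the activator of class II genes, lay below the floor at 209.9, as did the checkpoint ligand CD274 at 197, and the class II gene HLA-DRA sat at the floor at 488.

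Several metabolic lists had medians near percentile 90, below those of ribosomal proteins (97.1) and reference genes (95.3). Serine, one-carbon and nucleotide synthesis had 23 of 24 genes at or above the floor and 16 bright (66.7%, beside 10.6% of all genes), with a median at the 92.9th percentile. The ribonucleotide reductase subunits RRM1 (157700) and RRM2 (43358), IMPDH2 (116570), TK1 (98021) and the mitochondrial enzyme MTHFD2 (66424) were bright. TYMS, the target of fluorouracil, had 44832. DPYD, which breaks fluorouracil down, was the member below the floor at 119.7, with both probes below it, and stood at -1.97, -1.93 and -1.76.

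In glycolysis 13 of 23 genes were bright. Several steps had isozymes at both ends of the scale. Hexokinase HK1 (44237) and HK2 (12472) were bright and HK3 (48.7) below the floor, PKM (276279) was bright and PKLR (367) below, and LDHB (262408) and LDHA (150390) were bright and LDHC (429) below. PGK1, whose enzyme lies in the middle of the pathway, was dim at 2095 on 1 probe. The lactate exporters differed, with SLC16A1 at 10170 and SLC16A3 at 217, below the floor. Of the glucose transporters SLC2A1 had the highest signal at 5575, and none was bright. Gluconeogenesis was represented by PCK2 (6393) and FBP1 (4511), while PCK1 (93.7) and G6PC (74.3) lay below the floor.

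The tricarboxylic acid cycle had 13 of 23 genes bright, led by SDHB (122702), MDH2 (82531) and DLD (54906), with DLST (59.5, 1 probe) and ME2 (272) below the floor. Pentose phosphate and redox genes had 10 of 19 bright. GPX1, a glutathione peroxidase, had 294856 and TALDO1 124703. Below the floor were GPX2, the gut form of that enzyme (389), and NQO1, a quinone reductase (85.9). NQO1 stood at -2.45, -2.32 and -2.20 in the 3 libraries. Fatty acid oxidation had 6 of 17 genes bright, with ECHS1 at 82754 and HADHA at 41336, and PPARGC1A, a coactivator of mitochondrial genes, below the floor at 154.

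All 19 genes of cholesterol synthesis with a value lay at or above the floor, with a median at the 87.8th percentile. FDFT1 (64075), SQLE (22211) and DHCR7 (22158) led them, and SREBF2, the factor that drives the pathway, was dim at 1575. Of the fatty acid genes ACLY (20008), SCD (19659.6) and FASN (17754) were bright, while the desaturases FADS1 (165) and FADS2 (227) and the elongase ELOVL5 (142) lay below the floor. CD36, a fatty acid receptor better known from fat, muscle and macrophages, was bright with 84521. Its 3 probes lay at 147086, 137656 and 29821, and it stood at 7.49, 7.60 and 6.97 in the 3 libraries. Amino acid genes were bright in 11 of 20 cases, among them the transporters SLC3A2 (165491) and SLC1A5 (85674) and ODC1, the first enzyme of polyamine synthesis (94373), while the urea cycle gene OTC (346) and the arginase ARG1 (89) lay below the floor.

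Genes of drug metabolism lay at both ends of the scale. Of 36 genes 7 were bright and 16 below the floor. Besides GSTP1 and ALDH1A1 the bright members were GSTO1 (46129.9), ALDH3A1 (42753), GSTT1 (17696), UGT8 (12118) and CYP1A2, a cytochrome known from liver (50386, 1 probe). The efflux pump ABCB1 (172), UGT1A1, which inactivates the irinotecan product SN-38 (270), CYP3A4 (118), UGT2B15 (39.8) and AKR1B10 (62.6) lay below the floor, and the pumps ABCC3 (5912) and ABCG2 (3613) were intermediate. CYP1A2 stood at 6.75, 7.20 and 7.34 in the 3 libraries.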

How the data were processed

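One table of 31741 probes in 3 libraries was used, 1 library per group, through the column of the vector library and, for side-by-side values, the other 2 columns. The authors deposited a linear intensity per probe, judged linear from the range of the values. Labelling followed an amino allyl kit per the labels' protocols. No source used here gives the background correction, the scaling or how 2 technical replicates were joined. Of the probes 24658 had 1 symbol in the platform annotation, which can be old, and formed 18282 genes. Probes with several symbols or none were left out. Of the symbols 16552 are current in RefSeq (GRCh38.p14, for names and promoter windows). The array gave no probe positions.

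Gene values, classes, percentile ranks and counts per list were computed with Python 3.11.15, pandas 2.3.3 and numpy 2.4.6, and intervals with scipy 1.17.1. Each library was set against its own median, which scales the libraries by their medians, and no other scaling was applied. The medians were 469 (vector), 414 (labelled DDX3) and 305 (labelled DDX3+YAPsi). Values of the other libraries are log2 over their own floor. No test between groups and no p-value was possible with 1 sample per group. The number of arrays limits the precision. The steps were tested on simulated data. In all 50 gene lists gave 1418 genes with a value. The first listed promoter window of a gene was used. Members and lists were chosen with earlier results of these data known. Any list member could be named, first the 6 brightest, then those below the floor and those with probes in different classes, with the array's 30 brightest genes (leaving out pseudogenes, antisense, open reading frame and clone symbols), the 4 markers, MSH6, PMS2, DDX3X, YAP1 and SIX2. Alternatives were other floors, other ways to join probes, and current symbols alone.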

Additional observations from a re-analysis of the deposited data

How the results depend on the processing

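The counts depend mainly on the floor. With a floor at the 25th percentile of probes, 18 methylator genes, 17 mesenchymal genes and 46 receptor tyrosine kinases were at or above it, in place of 3, 8 and 24. At a floor of the 75th percentile there were 5067 of all genes, 416 of the 767 listed genes above the main floor, 10 Wnt targets, 20 epithelial genes, 5 mesenchymal genes, 2 mismatch recognition genes and 9 receptor tyrosine kinases. With a floor at the 95th percentile of olfactory receptors they were 3651, 323, 8, 14, 4, 1 and 4 in the same order, and 0 for methylator genes. With the brightest probe 6 methylator genes reached the floor. Over 50 lists the floor at the 95th percentile of olfactory receptors moved 42 counts by more than 1.5 times, that at the 75th percentile of probes 35, that at the 25th 20, the brightest probe 6, the dimmest probe 3, the mean linear intensity 1 and current symbols alone 0. Leaving out genes with probes on both sides of the floor, chosen after seeing the data, moved 3.

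The share of CpG-rich promoters at or above and below the floor (76.4% and 43.6%) was higher at or above the floor in each of the 4 alternatives run on it. It was 75.4% and 41.8% with the brightest probe and 81.8% and 54.4% with a floor at the 75th percentile. With settings chosen after seeing the data it was 73.8% and 41.3% for the last listed window and 77.1% and 44.9% without olfactory and taste receptors.

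Among 16 genes whose rank was followed, EGFR ranged from the 44.7th to the 72.6th percentile and DDX3X from the 73.5th to the 97.6th over the alternatives. No paired analysis was possible because each group holds 1 sample. No library could be left out, since the baseline is a single array, and signals over background per spot were not used here.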

Other observations

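Probes without a gene symbol held signals too. Of 6081 such probes 1856 (30.5%) were at or above the floor in the vector library and 228 (3.75%) were bright, beside 54.7% and 11.3% of probes with 1 symbol. Of 1002 probes with several symbols 52.7% were at or above the floor.

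In the vector library 531 probes exceeded 65535, the highest reading a 16-bit scanner gives. The values are therefore not plain scanner readings, and saturation could not be judged.

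Bitter taste receptors, which like olfactory receptors sense chemicals, were at or above the floor in 4 of 20 cases, each dim, with TAS2R39 and TAS2R10 highest at 2444 and 2442. All 13 common reference genes with a value were at or above the floor, from TUBA1B at 260669 to PGK1 at 2095, with ACTB at 16583.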
